A study of Mus musculus with 12 samples.

Results

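Zfp genes encode zinc finger proteins, and 149 protein-coding genes of mouse chromosomes 4, 7 and 13 whose symbol is Zfp followed by digits only are described here, out of 21631 protein-coding genes in all. They were taken by symbol and chromosome from the RefSeq gene table of GRCm38.p6 (mm10), leaving out Zfp42, and no measured value entered the choice. Chromosome 4 holds 27 of them, chromosome 7 holds 90 and chromosome 13 holds 32. A gene was called clustered where another of the 149 lay within 200 kb. That rule gave 117 clustered genes (16 on chromosome 4, 78 on chromosome 7 and 23 on chromosome 13) and 32 isolated genes.

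The measurement was ATAC-seq, in which a transposase inserts sequencing adapters into accessible DNA, on mouse embryonic stem cells differentiated as embryoid bodies under mesodermal conditions. Foxk1 KO cells were collected at day 3, day 5 and day 10. Cells labelled iHA-Foxk1 (genotype iFoxk1_ND) were their reference at days 3 and 5, and cells labelled only Control were the reference at day 10. Every group had 2 libraries and every library, KO and reference alike, carries the description NoDox. Foxk1 is a forkhead transcription factor, and the design asks how its loss changes accessibility during differentiation. The labels do not say that replicates were separate differentiations, how the deletion was made or how many clones it came from. Stem cells had been grown on a feeder layer of fibroblasts that was removed by plating, and the libraries are of whole embryoid bodies.

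Most mouse Zfp genes encode C2H2 zinc finger proteins, in which each finger contacts a few bases of DNA. Many carry a KRAB domain, which recruits Trim28 and through it the histone methyltransferase Setdb1, and these proteins are best known for silencing retrotransposons in embryonic stem cells and the early embryo. The family grew by tandem duplication, so its genes lie in rows of related copies, and the distal chromosome 4 group is known as one that expanded recently in the mouse. Among the genes described here, Zfp568 is known to repress a placental promoter of Igf2, Zfp708 to repress a retrotransposon family, and Zfp143 to activate many promoters. The symbol rule also takes Zfp36, which encodes an RNA-binding protein with fingers of another type.

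The promoters of 11 genes are shown because the results turn on how the clustered chromosome 4 genes differ from the others. Each line gives the 250 bases upstream of the RefSeq start site nearest the gene's end, with CpG dinucleotides in capitals. The first lines are chromosome 4 copies, from Zfp982, which was open throughout days 3 and 5, to those that were rarely or never open at their gene ends. Zfp978 and Zfp933, not printed, were also open at their gene ends in all 8 libraries of those days. Gene ends and printed start sites can lie apart. At its printed start site Zfp984 was open in all 8 libraries of days 3 and 5, and Zfp981 in 6 of them.
Zfp982 (chr4:147442864-147443113, plus strand): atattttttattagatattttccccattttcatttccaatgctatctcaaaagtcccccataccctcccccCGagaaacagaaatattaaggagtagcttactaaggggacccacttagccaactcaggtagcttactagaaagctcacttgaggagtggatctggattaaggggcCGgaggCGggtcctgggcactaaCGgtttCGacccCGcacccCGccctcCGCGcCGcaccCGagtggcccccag
Zfp985 (chr4:147553027-147553276, plus strand): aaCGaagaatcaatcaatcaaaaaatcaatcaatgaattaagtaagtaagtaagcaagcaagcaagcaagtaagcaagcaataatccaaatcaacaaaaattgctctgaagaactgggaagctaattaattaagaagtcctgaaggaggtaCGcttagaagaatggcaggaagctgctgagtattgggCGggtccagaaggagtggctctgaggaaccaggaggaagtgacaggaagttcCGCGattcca
Zfp979 (chr4:147642509-147642758, minus strand): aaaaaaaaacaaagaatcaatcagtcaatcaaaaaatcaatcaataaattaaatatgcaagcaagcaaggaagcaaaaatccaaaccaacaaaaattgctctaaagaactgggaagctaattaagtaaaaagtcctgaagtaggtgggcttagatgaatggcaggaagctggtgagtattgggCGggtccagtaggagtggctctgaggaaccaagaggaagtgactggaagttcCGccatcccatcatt
Zfp600 (chr4:146156577-146156826, plus strand): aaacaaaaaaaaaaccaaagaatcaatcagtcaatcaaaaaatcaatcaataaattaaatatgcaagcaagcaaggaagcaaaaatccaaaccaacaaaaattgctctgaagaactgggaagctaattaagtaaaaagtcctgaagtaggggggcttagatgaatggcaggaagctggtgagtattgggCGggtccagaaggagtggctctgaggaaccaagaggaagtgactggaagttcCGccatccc
Zfp534 (chr4:147702632-147702881, minus strand): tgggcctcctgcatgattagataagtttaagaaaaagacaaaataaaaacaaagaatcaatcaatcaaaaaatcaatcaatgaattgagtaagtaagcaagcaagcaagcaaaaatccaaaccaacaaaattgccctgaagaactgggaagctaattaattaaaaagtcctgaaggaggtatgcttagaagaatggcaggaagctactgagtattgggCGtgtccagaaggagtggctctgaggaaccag
Zfp981 (chr4:146514670-146514919, plus strand): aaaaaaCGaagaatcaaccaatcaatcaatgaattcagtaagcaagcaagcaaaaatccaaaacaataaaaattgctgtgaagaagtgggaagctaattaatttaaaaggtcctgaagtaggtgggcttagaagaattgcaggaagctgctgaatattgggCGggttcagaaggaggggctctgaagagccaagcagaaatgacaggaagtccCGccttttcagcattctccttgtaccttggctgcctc
Zfp984 (chr4:147809789-147810038, minus strand): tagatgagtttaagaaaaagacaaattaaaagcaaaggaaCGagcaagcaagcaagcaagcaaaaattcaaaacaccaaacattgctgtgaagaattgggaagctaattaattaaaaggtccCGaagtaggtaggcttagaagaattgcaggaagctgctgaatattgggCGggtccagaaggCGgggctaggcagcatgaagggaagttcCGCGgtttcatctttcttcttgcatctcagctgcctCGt
The next lines are a chromosome 13 start site far inside its gene model, both genes called in KO only at day 5, and an isolated gene for comparison.
Zfp595 (chr13:67332561-67332810, minus strand): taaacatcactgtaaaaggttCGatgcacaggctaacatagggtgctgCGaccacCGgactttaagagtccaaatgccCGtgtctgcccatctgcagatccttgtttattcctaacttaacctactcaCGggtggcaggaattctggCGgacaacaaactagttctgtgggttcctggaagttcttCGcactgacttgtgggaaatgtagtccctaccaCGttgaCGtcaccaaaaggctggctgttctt
Zfp429 (chr13:67399768-67400017, minus strand): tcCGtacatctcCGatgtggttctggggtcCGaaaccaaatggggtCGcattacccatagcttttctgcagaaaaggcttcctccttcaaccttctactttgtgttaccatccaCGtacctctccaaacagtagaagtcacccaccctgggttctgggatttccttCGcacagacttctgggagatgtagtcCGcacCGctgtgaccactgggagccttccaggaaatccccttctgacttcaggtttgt
Zfp27 (chr7:29906533-29906782, minus strand): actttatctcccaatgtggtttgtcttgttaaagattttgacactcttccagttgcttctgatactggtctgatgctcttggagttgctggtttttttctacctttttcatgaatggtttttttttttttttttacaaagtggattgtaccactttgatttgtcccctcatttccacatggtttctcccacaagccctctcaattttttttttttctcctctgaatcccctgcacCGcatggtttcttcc
Zfp143 (chr7:110061452-110061701, plus strand): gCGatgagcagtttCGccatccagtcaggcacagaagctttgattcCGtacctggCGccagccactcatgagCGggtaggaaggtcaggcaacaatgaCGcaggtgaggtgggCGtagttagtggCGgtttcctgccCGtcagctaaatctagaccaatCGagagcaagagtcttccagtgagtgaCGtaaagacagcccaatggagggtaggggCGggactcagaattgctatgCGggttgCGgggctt
Over the full 300 bases, which run 250 bases before to 50 bases after the start site, the promoter of Zfp979 was 94.8% identical to that of Zfp600 and 82.3% identical to that of Zfp985. The promoter of Zfp982 shared 47.2% with that of Zfp979, which was close to the 49.6% between Zfp979 and Zfp143 on chromosome 7. The printed 250 bases of Zfp982 held 11 CpG dinucleotides, against 7 in Zfp984, 5 in Zfp985 and 3 in Zfp981. Zfp979 and Zfp600 held 2 each, and Zfp534 held 1.

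The deposited lists hold single-base peak summits, each with the authors' score. After keeping chromosomes 1 to 19 and X, they held 53456 to 59006 summits per library at day 3, 14519 to 48391 at day 5 and 4028 to 10548 at day 10. Lists of a day were therefore reduced to the N highest-scoring summits, with N the shortest list (53456 at day 3, 14519 at day 5 and 4028 at day 10). A gene was called open in a library when one of those summits lay within 1 kb of either end of the gene, and its rank was the place of the best such summit in that library's own full list, 1 being the highest score. The iHA-Foxk1 day 5 replicate 1 library stood apart with the 14519 summits that set N at that day, and KO peak names of day 5 carry the tag D7 although the labels say day 5, which was followed. Names of day 10 lack the duplicate-removal tag of the other days, so age and processing cannot be told apart there. Of 9 mesoderm markers, 6 and 7 were open in KO libraries and 7 in each iHA-Foxk1 library at day 3, against 1 in each KO library and 3 in each iHA-Foxk1 library at day 5. Of 6 fibroblast markers, 5 were open in every library at day 3, and at day 5 the count was 0 and 1 in KO against 3 and 1 in iHA-Foxk1. Of 3 endoderm markers, 2 and 2 were open in KO against 2 and 3 in iHA-Foxk1 at day 3, and 1 and 1 in KO against 0 and 0 in iHA-Foxk1 at day 5. All 3 neural markers were open in every library at day 3 and 0 in any at day 5. Of 6 pluripotency markers, 4 and 4 were open in KO against 5 and 4 in iHA-Foxk1 at day 3. At day 5 they were 2 and 2 against 1 and 2. Cer1 was open in iHA-Foxk1 only at day 3 (ranks 45346 and 34744), as were 0.536% of all genes. Foxa2 was open in KO only at day 5 (9386 and 10334 in KO, against no summit and 17983 in iHA-Foxk1), as were 0.721%. Hand1, a mesoderm marker, was open in iHA-Foxk1 only at day 5 (4016 and 5396, against 37795 and 35917 in KO), as were 0.897%. The part of these marker differences in the results below was not tested. A summit at the ends of Foxk1 itself was present in 5 of 6 KO and 4 of 6 reference libraries (a count over full lists), which checks no label because the labels do not say what was deleted.

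Zfp gene ends were open more often than gene ends in general at days 3 and 5, in both genotypes. At day 3, 76.5% ± 0 of the 149 genes were open in KO and 80.5% ± 1.9 in iHA-Foxk1 libraries, against 63.4% ± 0.036 and 62.6% ± 0.0098 of all protein-coding genes (SD, n = 2 libraries each). At day 5 the values were 61.4% ± 0.475 in KO and 60.7% ± 0.475 in iHA-Foxk1, against 46.5% ± 0.667 and 45.7% ± 2.38 of all genes. At day 10, where lists are short, they were 12.8% ± 0.949 in KO and 16.8% ± 1.9 in Control, against 11.7% ± 0.739 and 15.5% ± 0.667 of all genes. KO minus reference thus came to -4.03, 0.671 and -4.03 percentage points at days 3, 5 and 10 for the Zfp genes, and to 0.717, 0.747 and -3.73 for all genes. These shares are descriptions with no test, because genes of a list are not replicates and 2 against 2 libraries cannot give a permutation p under 0.33. With N divided by 2 the difference changed sign at day 3 (2.68) and day 5 (-4.7).

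Clustered genes were open less often than isolated genes at days 3 and 10 and about as often at day 5. At day 3, 74.8% ± 0.604 of clustered genes were open in KO and 79.5% ± 2.42 in iHA-Foxk1, and 82.8% ± 2.21 and 84.4% ± 0 of isolated genes. At day 5, clustered genes stood at 61.5% ± 0 in KO and 61.5% ± 3.63 in iHA-Foxk1, and isolated genes at 60.9% ± 2.21 and 57.8% ± 11. At day 10, clustered genes stood at 10.7% ± 0.604 in KO and 13.7% ± 2.42 in Control, and isolated genes at 20.3% ± 2.21 and 28.1% ± 0. Over the libraries of a day, the mean of clustered minus isolated was -6.46 percentage points at day 3, 2.16 at day 5 and -12 at day 10. The day 3 value changed sign at RefSeq start sites, where it was 1.47, and it was -2.16 without the clustered genes of chromosome 4. The day 10 value was -17.1 at start sites. Among the 217 Zfp genes of other chromosomes, clustered ones were open in 91.6% ± 0.626 of cases in KO and 91.6% ± 0.626 in iHA-Foxk1 at day 3, above the isolated ones at 84.1% ± 0.68 and 81.7% ± 1.36.

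**Figure D1:**
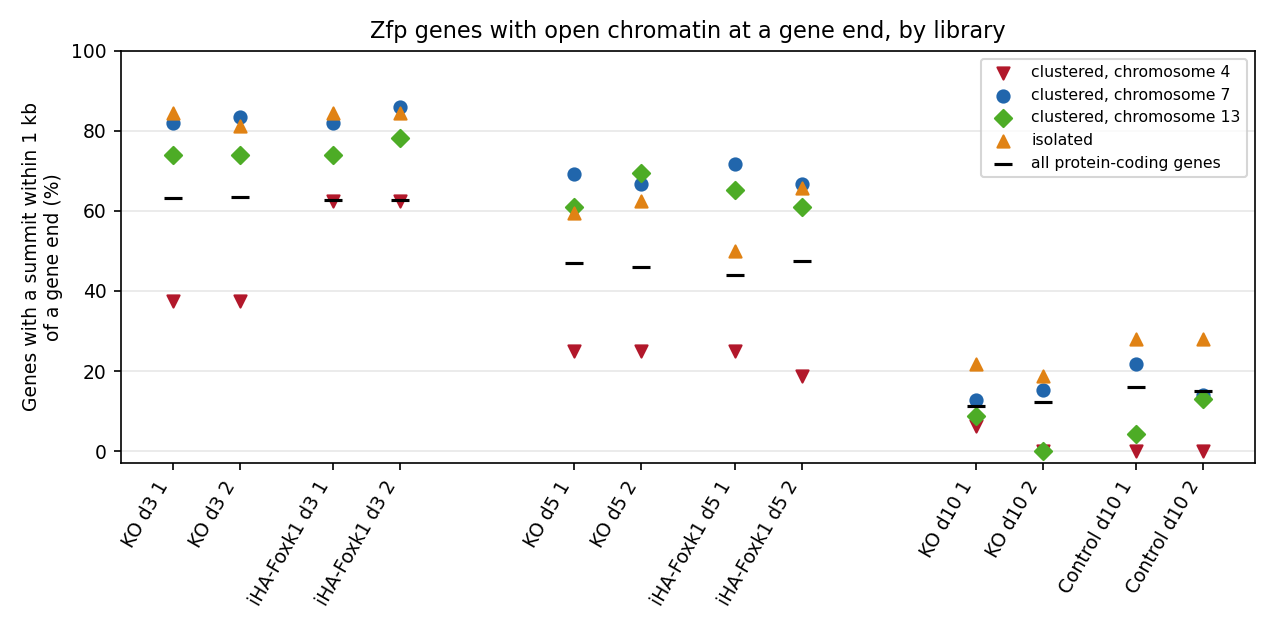
Percentage of genes with a summit within 1 kb of a gene end, in each of the 12 libraries, at equal list length within a day. Points are single libraries. Clustered chromosome 4 genes stand at 37.5% in both KO libraries and 62.5% in both iHA-Foxk1 libraries at day 3, below the clustered genes of chromosomes 7 and 13 in every library of days 3 and 5.

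The clustered chromosome 4 genes departed from the rest. At day 3, 6 of 16 were open in each KO library and 10 of 16 in each iHA-Foxk1 library, which is 37.5% ± 0 against 62.5% ± 0. No library of one genotype overlapped the other, and the clustered genes of chromosome 7 (82.7% ± 0.907 in KO, 84% ± 2.72 in iHA-Foxk1) and chromosome 13 (73.9% ± 0 and 76.1% ± 3.07) differed by less than the larger SD. The 10 chromosome 4 genes open at day 3 were not the same in both iHA-Foxk1 libraries, so that their SD of 0 holds for the count alone. Zfp990 (rank 52852) and Zfp992 (52881) were open in replicate 1 only, and Zfp600 (46306) and Zfp988 (46527) in replicate 2 only. At day 5 the chromosome 4 share was 25% ± 0 in KO and 21.9% ± 4.42 in iHA-Foxk1, and the day 3 difference was not seen. Among the 4028 best summits of each list, the day 3 share was 12.5% ± 0 in KO and 12.5% ± 0 in iHA-Foxk1. In full lists, which differ in length, it was 50% ± 0 in KO and 28.1% ± 4.42 in iHA-Foxk1 at day 5. At day 10 a single chromosome 4 cluster gene, Zfp978, was open at equal length, in KO replicate 1.

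The genes behind the chromosome 4 difference had low-ranking summits. A gene was called open in one genotype only when both of its libraries, and neither of the other, had a summit. At day 3, 1 Zfp gene was open in KO only, against 0.791% of all genes, and 4 in iHA-Foxk1 only, against 0.536% of all genes. Zfp993 was the KO-only gene, with ranks of 41060 and 42818 in KO and no summit in iHA-Foxk1. Zfp979 ranked 51067 and 49274 in iHA-Foxk1, Zfp981 ranked 48831 and 41108, and Zfp985 ranked 26433 and 31299, with no summit in KO. All of these lie in the same chromosome 4 cluster, and all but Zfp985 stand near the end of lists of 53456 summits. Zfp668, on chromosome 7, ranked 8701 and 33537 in iHA-Foxk1 and had no summit at its gene ends in KO. Within 1 kb of its start site, however, Zfp668 had a summit in all 4 libraries, at ranks 10404 and 7284 in KO and 8701 and 13163 in iHA-Foxk1. At start sites Zfp981 was open in all 4 day 3 libraries too, ranking 10085 and 16735 in KO against 366 and 1012 in iHA-Foxk1, so both iHA-Foxk1 libraries ranked it higher. At day 3 start sites, Zfp985 and Zfp979 were called in iHA-Foxk1 only, against 0.457% of 17274 genes with a start site, and Zfp993 in KO only, against 0.579%.

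**Figure D2:**
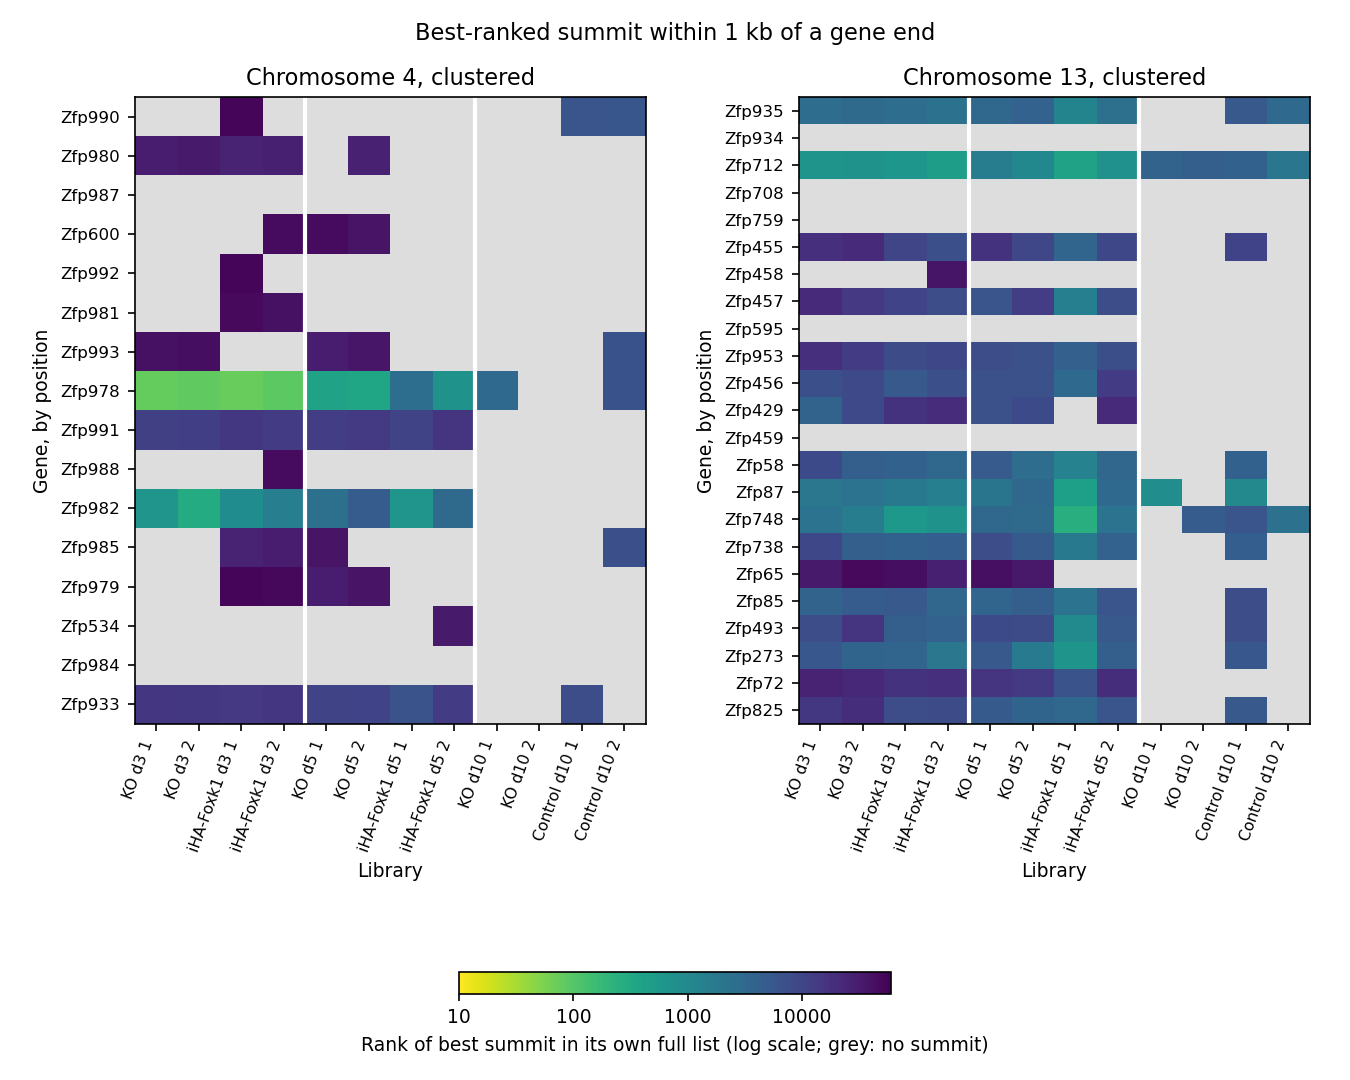
Rank of the best summit within 1 kb of a gene end in each library's full list, on a log colour scale, for the clustered genes of chromosome 4 and chromosome 13 in order of position. Grey marks no summit. Chromosome 4 rows are mostly grey or dark except Zfp978 and Zfp982, whereas most chromosome 13 rows are filled in all 8 libraries of days 3 and 5.

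At their gene ends, the clustered genes of chromosome 4 ranged from the top of the lists to no summit. Zfp978 had one of the best-ranked summits of the genome at day 3, at ranks 77 and 84 in KO and 75 and 90 in iHA-Foxk1. At day 5 Zfp978 ranked 405 and 362 in KO and 2610 and 706 in iHA-Foxk1. Both KO libraries thus ranked it higher. Its summit lay within 444 bases of the gene's lower end, at chr4:147124882, in every list that had it. Zfp982 ranked 637 and 286 in KO and 869 and 1471 in iHA-Foxk1 at day 3, and no library had its summit at day 10. Zfp933 stayed between 14344 and 15057 in all 4 libraries of day 3. Zfp991 was open in 7 of the 8 libraries of days 3 and 5, and Zfp980, outside the Zfp992 to Zfp933 cluster, in 4. Zfp984 had no summit at its gene ends in any list, but was open at its start site in 10 of the 12 libraries. Zfp987, also outside that cluster, had no summit at its gene ends in any list. Several of these gene models overlap, such as Zfp981 with Zfp993 and Zfp978 with Zfp991 and Zfp988, and some promoters are near copies, so that read pairs could have been assigned to the wrong copy. The sources used here do not say how reads with several matches were placed, and the part of this in these values was not tested.

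Summits across the whole span from Zfp992 to Zfp933 (chr4:146449030-147849126, 1400 kb with 12 of the Zfp genes among 13 protein-coding genes) were counted because the gene ends are few. At day 3 the span held 77 and 89 summits in KO and 116 and 110 in iHA-Foxk1, without overlap. At day 5 it held 15 and 19 in KO and 19 and 13 in iHA-Foxk1, and these overlap. At day 10 it held 27 and 25 in KO and 1 and 6 in Control, without overlap and in the opposite direction to day 3. Only 1 and 0 of the day 10 KO summits lay within 1 kb of a gene end, and 9 of them in each library had a partner within 250 bp in the other KO replicate. At equal list length, 5 places had a summit in both KO libraries and in neither Control library of day 10. The nearest of them to a gene end lay 2629 bp from an end of Zfp984, at ranks 3964 and 3493. That place lay within 1 kb of the Zfp984 start site, and its summits are those of the day 10 start site call of Zfp984 given below. Day 10 KO lists held more summits away from gene ends everywhere, with 1911 and 1725 of 4028 in KO against 1098 and 1260 in Control. The span took 1.36% and 1.45% of those in KO and 0.0911% and 0.476% in Control. In full lists, of 4028 and 4755 summits in KO against 10548 and 7764 in Control, the day 10 difference in the span was -3.5 instead of 22.5, so that it depends on equal list length.

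**Figure D3:**
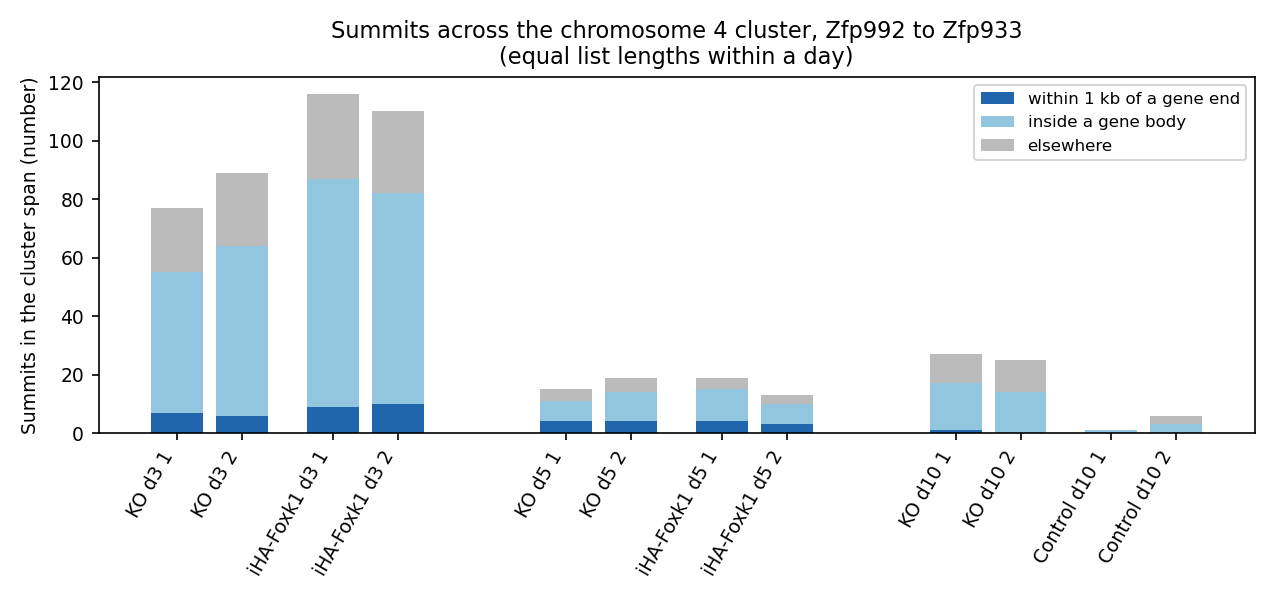
Number of summits from Zfp992 to Zfp933 on chromosome 4 in each library, stacked by place, with equal list lengths within a day. KO bars are lower than iHA-Foxk1 bars at day 3 (77 and 89 against 116 and 110) and higher than Control bars at day 10 (27 and 25 against 1 and 6), nearly all of it away from gene ends. Start sites that lie apart from gene ends, such as that of Zfp984, are not marked.

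The other large clusters were open at most of their genes in both genotypes at day 3. From Zfp712 to Zfp273 on chromosome 13 (chr13:67038594-67827000), a region known for the regulators of sex-limited liver genes, 14 and 14 of 19 genes were open in KO and 14 and 15 in iHA-Foxk1 at day 3. Their count at day 5 was 12 and 13 in KO and 12 and 12 in iHA-Foxk1. From Zfp84 to Zfp146 on chromosome 7, 14 of 15 genes were open in every library of day 3, and 14 and 14 in KO against 12 and 13 in iHA-Foxk1 at day 5. From Zfp180 to Zfp575, 9 and 8 of 12 were open in KO and 7 and 9 in iHA-Foxk1 at day 3, and 5 and 5 in KO against 6 and 5 in iHA-Foxk1 at day 5. From Zfp553 to Zfp629, 7 of 8 were open in every library of day 3, and 5 and 4 in KO against 6 and 5 in iHA-Foxk1 at day 5. Zfp568, in the Zfp84 cluster, ranked 5005 and 10288 in KO and 10386 and 3572 in iHA-Foxk1 at day 3, and the genotypes overlap.

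Among open genes, ranks were close to those of all open genes at day 3, apart from chromosomes 4 and 13, and less so at days 5 and 10. The median rank of open clustered genes lay at 18.3% ± 0.828 of the list in KO and 17.5% ± 0.796 in iHA-Foxk1 at day 3, against 19.7% ± 0.0602 and 19.7% ± 0.181 for all open genes. For the clustered genes of chromosome 13 it lay at 15.2% ± 1.51 in KO and 10.4% ± 0.794 in iHA-Foxk1, a lower place in both KO libraries than in either iHA-Foxk1 library. For chromosome 4 it lay at 24.8% ± 0.231 in KO and 51.7% ± 5.09 in iHA-Foxk1, where the genes open in iHA-Foxk1 only have low ranks. At day 5 the median of isolated genes lay at 26.2% ± 3.85 in KO and 25.1% ± 0.409 in iHA-Foxk1, a better place than the 36.4% ± 0.127 and 36.9% ± 1.48 of all open genes, and that of clustered genes at 34.1% ± 2.47 and 29.5% ± 10.5. At day 10 clustered genes lay at 63.9% ± 2.74 in KO and 49.4% ± 5.88 in Control, against 53% ± 0.544 and 51.2% ± 0.176 for all open genes. Clustered genes of chromosome 13 lay at 34.1% ± 2.42 in KO and 21.3% ± 16.6 in iHA-Foxk1 at day 5, a wide spread between the iHA-Foxk1 libraries. No test was run on these medians. Zfp748, Zfp455 and Zfp808 are named for their small permutation p, given below. Zfp748 had ranks of 2173 and 1553 in KO against 583 and 723 in iHA-Foxk1 at day 3. Its day 5 ranks were 3170 and 2934 against 246 and 2147. Zfp429, of the same cluster, went the other way at day 3, with 3738 and 8704 in KO against 16631 and 19610 in iHA-Foxk1. Zfp455 ranked 17713 and 20951 in KO and 9650 and 7207 in iHA-Foxk1 at day 3. Zfp808, an isolated chromosome 13 gene 279078 bp from the next, ranked 4169 and 4172 in KO against 1572 and 1915 in iHA-Foxk1 at day 3, and 4574 and 5273 against 725 and 3222 at day 5.

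No Zfp gene had an adjusted p under 0.05 in a test over all 12 libraries, which that test could hardly give. Each gene got a rank score, which falls from 1 for the best summit towards 0 at the end of the list and is 0 with no summit, and genotype was permuted within days in every possible arrangement. The smallest two-sided p this exact test can give is 0.00926. After adjustment over all genes tested, a value under 0.05 would need a large share of them at that smallest p. The lack of such values therefore does not show that the genotypes are alike. Of 14518 genes with a summit at equal length in at least 1 library, 127 were Zfp genes of these chromosomes. An unadjusted exact permutation p under 0.05 was reached by 2 of the 127, which is 1.57%, against 1.38% of all genes tested, and 0 genes of any kind had a Benjamini-Hochberg adjusted p under 0.05. Those genes were Zfp808, with mean scores of 0.528 in KO and 0.662 in the references, and Zfp748, with 0.585 and 0.71, each with an exact permutation p of 0.0278 and an adjusted p of 0.862. Next, at an exact permutation p of 0.0556, Zfp27 scored 0.274 in KO and 0.0119 in the references and Zfp429 scored 0.45 and 0.22. Zfp455, with 0.27 in KO and 0.471 in the references, had the same p.

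At day 5, 2 Zfp genes were open in KO only, against 0.721% of all genes, and 0 in iHA-Foxk1 only, against 0.897%. Zfp429, on chromosome 13, ranked 7018 and 8457 in KO, and in iHA-Foxk1 it had no summit in replicate 1 and rank 21432 in replicate 2. Zfp27, on chromosome 7, ranked 9005 and 12317 in KO and 15576 in iHA-Foxk1 replicate 2, with no summit in replicate 1. Both had a better rank in each KO library than in each iHA-Foxk1 library at day 3 as well, with 3738 and 8704 against 16631 and 19610 for Zfp429 and 19756 and 27738 against 53435 and 49677 for Zfp27. Both day 5 calls rest on the short iHA-Foxk1 replicate 1 list. Without that library N became 34040 and neither was called, since both have a summit within that length in iHA-Foxk1 replicate 2. Other genes were then called, 2 in KO only (Zfp640 and Zfp977) and 3 in iHA-Foxk1 only (Zfp534, Zfp296 and Zfp936). With all libraries, both calls also stood at start sites, where 0.776% of genes were called in KO only, and Zfp981 was called there in iHA-Foxk1 only, against 0.874%, at ranks 15108 and 15035 in KO, just past the end of the compared 14519, and 9207 and 11388 in iHA-Foxk1.

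At day 10, 0 Zfp genes were open in KO only, against 0.245% of all genes, and 4 in Control only, against 1.96%. Zfp784 and Zfp580 were called through the same summit between them, at ranks 3218 and 3692 in Control. Zfp939 ranked 1328 and 3022 in Control, and Zfp511, an isolated gene with the end of another gene within 1 kb, ranked 3843 and 3292. None of these had a summit in either KO list of day 10, and all were open in every library of days 3 and 5. Control-only calls were 1.96% of all genes at this day, so that 4 of 149 is close to the background. At start sites, 5 Zfp genes were called in Control only, against 2.22% of genes, and 2 in KO only, against 0.295%. The KO-only ones were Zfp981 and Zfp984, of the same chromosome 4 cluster but with other Zfp genes between them (start sites at chr4:146514920 and chr4:147809788). Zfp981 was at ranks 1504 and 3126 in KO against 6714 and 5819 in Control. Zfp984 was at 3964 and 3493 in KO against 8473 and 6845 in Control, so that each had a summit in all 4 full lists.

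Between day 5 and day 3, at the 14519 best summits of each list, more Zfp genes appeared than went, as over all genes. In KO, 9 were open at day 5 only, against 4.87% of all genes, and 0 at day 3 only, against 0.573%. In iHA-Foxk1, 9 were open at day 5 only, against 5.27%, and 1 at day 3 only, against 0.892%. Zfp383 and Zfp689, both on chromosome 7, were called at day 5 only in both genotypes. Zfp383 ranked 10131 and 13604 at day 5 and 23432 and 27637 at day 3 in KO, and 4366 and 12791 at day 5 and 28213 and 18231 at day 3 in iHA-Foxk1. Zfp825, Zfp82, Zfp260, Zfp933, Zfp27 and Zfp507 were others called in KO, and Zfp553, Zfp114, Zfp169 and Zfp747 in iHA-Foxk1. Zfp640, an isolated chromosome 13 gene, was the day 3 only gene of iHA-Foxk1, with no summit at day 5 and ranks of 2970 and 4908 at day 3. In KO it ranked 16258 and 23906 at day 5, and at day 3 it ranked 42160 in replicate 1 and had no summit in replicate 2. Using all summits, the counts in KO became 2 and 2 and those in iHA-Foxk1 became 0 and 10, so that the direction depends on equal list length. It also depends on the iHA-Foxk1 day 5 replicate 1 library, whose list set N. Without it, 2 genes were called at day 5 only and 2 at day 3 only in KO, and 3 and 4 in iHA-Foxk1, and 0 of the 9 day 5 only calls of either genotype were kept.

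At the other end of the scale, some Zfp genes were open nearly always and others never at their gene ends. Over the 8 libraries of days 3 and 5, 77 genes (51.7%) were open in all 8, 49 (32.9%) in some and the other 23 in none. Of all protein-coding genes, 37.8% were open in all 8, 29.2% in some and 33% in none. For clustered genes those counts were 63, 36 and 18, and for isolated genes 14, 13 and 5. Clustered Zfp444 and Zfp78 and isolated Zfp788, Zfp131, Zfp189 and Zfp367 were open in all 12 libraries. Zfp444 ranked 1319 and 698 in KO and 1211 and 1141 in Control even at day 10, and Zfp788 ranked 653 and 547 in KO and 870 and 1233 in Control. Zfp619, Zfp180, Zfp771 and Zfp128 (clustered) and Zfp143 and Zfp691 (isolated) were open in 11. No summit lay at the gene ends of 21 genes in any full list, among them clustered Zfp987, Zfp984, Zfp583, Zfp446, Zfp235 and Zfp109 and isolated Zfp352, Zfp46, Zfp536, Zfp369 and Zfp366.

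Many of the genes with no summit at their ends had one at a start site. RefSeq start sites, from a promoter table of the same build, were at hand for 129 of the 149 genes (102 clustered and 27 isolated), and those of 23 genes lay over 1 kb from the gene's end. Of the 21 genes with no summit at their ends, 16 had a start site, and 12 of those were open there in all 8 libraries of days 3 and 5. Zfp595, whose start site lies 10394 bases inside its gene model, ranked 11391 and 11557 there in KO and 11798 and 3845 in iHA-Foxk1 at day 3. Zfp708, with none at its gene ends, was open at its inner start site in 11 of 12 libraries, ranking 1596 and 2336 in KO and 2522 and 1408 in iHA-Foxk1 at day 3. Zfp46 ranked 16053 and 12626 in KO and 9775 and 12105 in iHA-Foxk1 at that day.

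Measured at start sites, the clustered genes of chromosomes 7 and 13 were open almost without exception at day 3. On chromosome 13, 100% ± 0 of 20 genes were open in KO and 100% ± 0 in iHA-Foxk1, and on chromosome 7, 97.1% ± 0 of 70 in KO and 97.1% ± 0 in iHA-Foxk1. Isolated genes stood at 90.7% ± 2.62 in KO and 92.6% ± 0 in iHA-Foxk1, and all genes with a start site at 65.8% ± 0.045 and 65.4% ± 0.086. Zfp genes of other chromosomes stood as high, the clustered ones at 97.9% ± 0 in KO and 97.9% ± 0 in iHA-Foxk1. Their isolated ones stood at 93.6% ± 0 and 94.2% ± 0.907. The 12 clustered chromosome 4 genes with a start site stood at 50% ± 0 in KO and 66.7% ± 11.8 in iHA-Foxk1 at day 3 and at 25% ± 0 and 33.3% ± 0 at day 5. At day 10 they stood at 16.7% ± 0 in KO, the start sites of Zfp981 and Zfp984, and at 0% ± 0 in Control. Where a clustered gene was open, the best summit lay a median of -1.5 bases from the start site in KO and 6 in iHA-Foxk1 over days 3 and 5 (positive is inside the transcript), with 77.6% and 68.2% within 150 bases. For all genes those shares were 70.5% in KO and 64.7% in iHA-Foxk1.

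**Figure D4:**
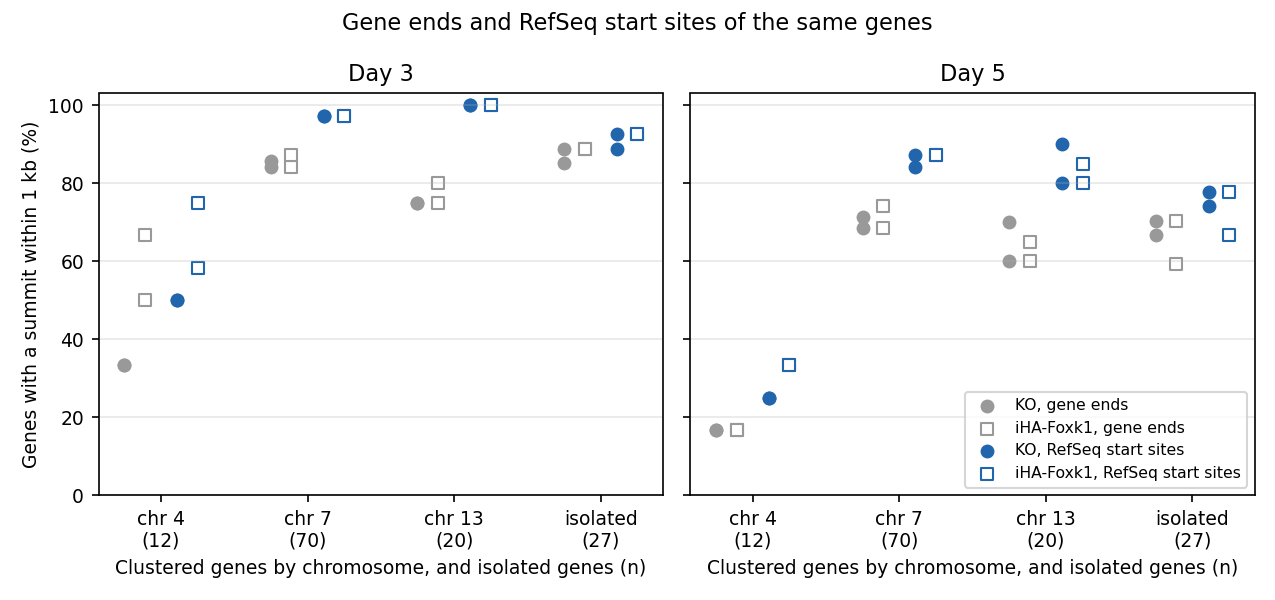
Percentage of the same 129 genes with a summit within 1 kb of a gene end (grey) or of a RefSeq start site (blue) at days 3 and 5. Each point is 1 library, filled for KO and open for iHA-Foxk1. At start sites, clustered genes of chromosome 13 reach 100% at day 3, while those of chromosome 4 stay at 50% in KO and 66.7% on average in iHA-Foxk1.

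Promoters of clustered chromosome 4 genes differed in their medians from those of the other clusters, but single genes overlapped. CpG numbers ran from 3 to 16 on chromosome 4, 1 to 35 on chromosome 7 and 4 to 16 on chromosome 13. Identity to the most similar Zfp promoter was 51.6% for Zfp993 on chromosome 4 and 89.8% for Zfp977 on chromosome 7. The median number of CpG dinucleotides in the 300-base promoter was 4.5 for clustered chromosome 4 genes, 13.5 for chromosome 7, 8 for chromosome 13, 18 for isolated genes and 14 for all genes. A run of 50 bases found in another gene's promoter as well occurred in 9 of 12 chromosome 4 promoters (75%), against 5.71% on chromosome 7, 10% on chromosome 13 and 15.3% of all genes. The median identity to the most similar promoter among the Zfp genes of the same chromosome was 85.1% on chromosome 4, 54.2% on chromosome 7 and 63.8% on chromosome 13.

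Each of the 153 start sites was then set beside its own CpG number. With 0 to 5 CpG dinucleotides, 6 of 29 Zfp start sites (20.7%) were open in all 8 libraries of days 3 and 5, against 2.65% of 6676 start sites of all genes. With 6 to 10, the share was 62.2% of 37, against 19.7%. It was 79.3% of 58 with 11 to 20, against 57.3%, and 79.3% of 29 with more than 20, against 70%. In the lowest class, 6 of 12 clustered start sites of chromosomes 7 and 13 were open in all 8 libraries, 0 of 11 of chromosome 4 and 0 of 6 of isolated genes. The clustered chromosome 4 start site with the most CpG dinucleotides (16), of Zfp982, was open in all 8. Other start sites of Zfp982, with 5 and 2, were open in 4 and 0. Zfp27, called in KO only at day 5, had a start site with 1 and another with 13, each open in 6 of the 8. The start site of Zfp429 had 10. These are counts with no test, since start sites of a cluster descend from shared sequences.

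**Figure D5:**
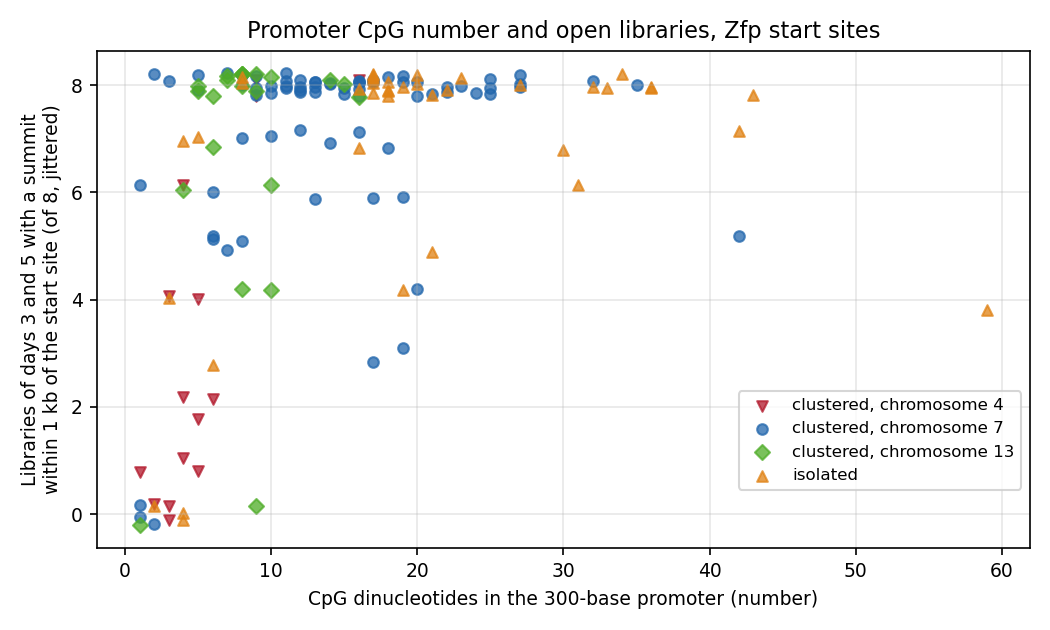
Number of CpG dinucleotides in the 300-base promoter against the number of libraries of days 3 and 5, of 8, with a summit within 1 kb of that start site. Each of the 153 points is a start site, moved slightly up or down so that points can be told apart. Chromosome 4 points lie at the left and mostly low, and points of chromosomes 7 and 13 with as few as 2 CpG dinucleotides (Zfp418) lie at 8.

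A fixed set of letters was searched on both strands of the promoter nearest each gene's end. CCGGAAG, a motif of ETS factors, was in 21.7% of the 129 Zfp promoters and 12.1% of all 17274, with 24.3% on chromosome 7, 30% on chromosome 13 and 0 of 12 on chromosome 4. GGGCGG, a motif of Sp1, was in 37.2% against 46.9%, with 8 of 12 on chromosome 4, and CCAAT was in 45.7% against 39.6%, with 10 of 12 on chromosome 4. TGACGTCA, the cyclic AMP response element, was in 4 of 20 chromosome 13 promoters, that of Zfp595 above among them, against 2.36% of all. TATAAA was in 5.43% against 13.4%, AAGATGGC in 5.43% against 3.23%, the palindromic NRF1 motif in 1.55% against 0.214% and the palindromic Kaiso motif in 0% against 0.735%. In Zfp promoters of other chromosomes, CCGGAAG was in 23.7% of clustered and 23.1% of isolated genes, and TATAAA in 4.12% and 10.3%. GTAAACA, the core of forkhead motifs, was in 1.55% of Zfp promoters and 2.96% of all. None of these motifs contains another, matches of different motifs could share end bases, and a match is not a bound site.

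A cofactor list of 20 genes, mostly cofactors through which KRAB proteins act, was largely open throughout days 3 and 5. Zfp57 and Zfp809 in that list encode KRAB zinc finger proteins themselves. Of 20 genes, 16 were open in every library of day 3, when 63.4% of all genes were open in KO and 62.6% in iHA-Foxk1. At day 5, 16 and 15 were open in KO against 16 and 15 in iHA-Foxk1, with 46.5% and 45.7% of all genes. Trim28, the corepressor that binds the KRAB domain, ranked 3152 and 4478 in KO and 3630 and 11195 in iHA-Foxk1 at day 3, and the genotypes overlap. Setdb1, Atf7ip, Cbx1, Cbx3, Cbx5, Hdac1, Dnmt3b, Uhrf1, Mphosph8, Pphln1, Morc2a, Morc3, Smarcad1 and Zfp809 were likewise open in all 8 libraries, and Chd4 in 6. Dnmt1, Dnmt3a, Tasor and Zfp57 had no summit at their gene ends. At day 10, Morc2a, a chromatin compactor of the HUSH pathway, was open in KO only, at ranks 3145 and 3685 against 5186 and 6915 in Control, as were 0.245% of all genes. Mphosph8, the HUSH subunit that reads methylated histone H3, was open in Control only, at 1800 and 1518, as were 1.96% of all genes. Setdb1 was called at day 5 only in KO, against 4.87% of all genes, and Cbx1 and Dnmt3b at day 5 only in iHA-Foxk1, against 5.27%.

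The boundary of 200 kb between clustered and isolated left few genes near it. Just inside lay Zfp526 and Zfp574, 136357 bp apart, and Zfp629 at 157870 bp, open in 4, 0 and 5 of the 8 libraries of days 3 and 5. Just outside lay Zfp808 at 279078 bp, Zfp640 at 357791 bp and Zfp36 at 362574 bp, open in 8, 3 and 5. Another gene's end lay within 1 kb of the ends of 19 of the 149 genes, so that a summit there cannot be given to either.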

How the data were processed

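ATAC-seq summit lists of 12 libraries, 2 for each of KO and reference at days 3, 5 and 10, were used as deposited. Per the submitters' processing notes, reads were aligned with Bowtie2 2.2.4 to mm10 and peaks called with MACS2, and each library has its own list. The deposited score of a summit is a −log10 value set by the authors' peak caller; whether of a p-value or a q-value is not given in the sources used here. It was used only to rank summits within a list. Read depth is unknown, so no interval or floor is given.

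Gene ends came from the RefSeq table of GRCm38.p6, and start sites and promoter sequences from RefSeq of the same build, of which 129 of 149 genes had one. Calls and the permutation test (Python 3.11.15, numpy 2.4.6, pandas 2.3.3; promoter alignment with biopython 1.88) were tested on simulated lists. The test adjusts p-values by Benjamini-Hochberg over 14518 genes, and p-values measure only the spread between these libraries. Proteins were not analysed here.

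Genes and lists were chosen with earlier results of these data known. Genes were named by a rule. It took those called between genotypes (up to 8 per day and direction) or between days (up to 6). It also took the 6 clustered and 6 isolated open in most libraries, and up to 6 of each with no summit. The 5 of smallest permutation p, the 5 largest clusters and all genes of the cofactor list completed it. Others, including the printed promoters other than those of called genes, start sites as anchors and the chromosome 4 span, were chosen after their values were seen.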

Additional observations from a re-analysis of the deposited data

Results flagged for a closer look

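Differences in opposite directions at separate days, without overlap between genotypes, were found for 1 gene and 2 clusters. In no case was the difference between days tested. The gene is 1 of 127 Zfp genes with a summit at equal length in at least 1 library. The clusters are 2 of the 5 largest, whose spans were counted at each day. With 2 against 2 libraries, a lack of overlap cannot give a permutation p under 0.33. No share of all genes is given for comparison, so these cases are not shown to exceed chance. The span from Zfp992 to Zfp933 on chromosome 4 held 30 fewer summits in KO at day 3 (KO minus iHA-Foxk1, mean -30) and more in KO at day 10 (KO minus Control, mean 22.5). The span from Zfp180 to Zfp575 on chromosome 7 held 39 and 40 summits in KO against 32 and 36 in iHA-Foxk1 at day 3, a mean difference of 5.5. At day 5 it held 12 and 13 in KO against 14 and 14 in iHA-Foxk1, a mean difference of -1.5. In full lists, which differ in length, the day 5 counts of that span were 31 and 31 in KO against 14 and 26 in iHA-Foxk1, so that the opposite direction is not seen there. In full lists the chromosome 4 span held 27 and 30 in KO against 34 and 30 in Control at day 10, and its opposite direction is not seen there either. Zfp511, an isolated gene of chromosome 7, had a rank score 0.04 higher in KO than in iHA-Foxk1 at day 5, and a lower score in KO than in Control at day 10 (KO minus Control -0.115). Its day 5 ranks were 662 and 816 in KO and 1029 and 1623 in iHA-Foxk1, and it had no summit in KO at day 10.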

How the results depend on the processing

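Of 118 alternative values of the 20 results other than those leaving out a library, 73 stayed within 1 SD between replicates of the reported value, or within 1.5 times it for a count, 40 moved and 5 reversed, and the cause was not tested. That SD was 10.5 points for clustered minus isolated at day 5, which was 2.16 as reported, 11.5 with clusters defined at 100 kb and -0.165, of the other sign, at 500 kb. With all summits of every list, members called in KO only at day 5 numbered 8 and in Control only at day 10 numbered 15, day 5 only calls came to 2 in KO and 0 in iHA-Foxk1, and day 3 only calls to 2 in KO and 10 in iHA-Foxk1. KO minus reference in open share became 9.73 points at day 5 and -21.8 at day 10, clustered minus isolated became -7.53 at day 10, and the chromosome 4 span difference became 26.5 at day 5 and reversed to -3.5 at day 10. With N divided by 2, calls in KO only numbered 5 (day 3) and 1 (day 5), and calls in the reference only numbered 1, 3 and 0 at days 3, 5 and 10. KO minus reference was -1.01 at day 10 and reversed at day 3 (2.68) and day 5 (-4.7), clustered minus isolated was -8.72 at day 10, the span differences were -9 at day 3 and 6.5 at day 10, day 3 only calls in iHA-Foxk1 numbered 2, and 1 gene had a permutation p under 0.05. With a 500 bp window, KO-only calls at day 3 numbered 0, iHA-Foxk1-only calls at day 5 numbered 1, and clustered minus isolated was -2.28 at day 3 and -8.21 at day 10. With a 2 kb window, KO-only calls numbered 1 at day 5 and 1 at day 10, reference-only calls 1 and 7, KO minus iHA-Foxk1 was 0 at day 5, and 4 genes had a permutation p under 0.05. With clusters defined at 100 kb, clustered minus isolated was -3.04 at day 3 and -7.79 at day 10. At start sites, reference-only calls numbered 2 (day 3) and 1 (day 5), KO-only calls 2 at day 10, KO minus iHA-Foxk1 was -1.94 at day 3 and reversed to -0.388 at day 5, and clustered minus isolated reversed to 1.47 at day 3 and was -17.1 at day 10. Without the clustered chromosome 4 genes clustered minus isolated was -2.16 at day 3. Taking symbols with a letter and clusters at 500 kb moved no result by this measure. Same-numbered replicates did not deviate together (correlations of -0.0181, -0.0383 and -0.0206 at days 3, 5 and 10), and with the replicate block 1 gene had a permutation p under 0.05 instead of 2.

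Leaving out each library in turn, with N set again, KO-only calls ranged from 1 to 2 (day 3), 2 to 8 (day 5) and 0 to 4 (day 10), and reference-only calls from 4 to 8, 2 to 6 and 5 to 11. Every gene called between genotypes as reported was kept in each of these, except that both KO-only calls of day 5 were lost without iHA-Foxk1 replicate 1. Day 5 only calls ranged from 2 to 14 in KO and 3 to 15 in iHA-Foxk1, and day 3 only calls from 0 to 2 and 1 to 4. Genes with a permutation p under 0.05 ranged from 0 to 4. KO minus reference stayed within -5.37 to -2.68 at days 3 and 10 and within 0.336 to 1.01 at day 5. Clustered minus isolated stayed within -7.55 to -5.27 (day 3) and -13.2 to -10.7 (day 10), and changed sign at day 5 (-4.34, without iHA-Foxk1 replicate 1, to 5.1). The chromosome 4 span difference stayed within -36.5 to -24 (day 3) and 20 to 25 (day 10), and at day 5 ran from -10, without iHA-Foxk1 replicate 1, to 3. With 2 libraries a group and list lengths that differ up to 3.33-fold within a day, a gene without a summit is not shown to be closed.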
